A study of Mus musculus with 4 samples.

Results

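The circadian clock genes followed here were Clock, Per1, Per2, Per3, Cry1, Cry2, Nr1d1, Nr1d2, Dbp and Tef, taken as every probe set whose only gene symbol was one of these names. All 10 of them, among 18193 named genes, were measured, with 24 of the 45101 probe sets of the array, and 6 had more than 1 probe set. The 4 arrays, named Rhau KO 1, Rhau KO 2, Control 1 and Control 2 after their labels and replicate numbers, held RNA labelled as heart RNA of adult C57BL/6J mice. By the paper's description, the KO-labelled arrays came from CAAG-ERT2-Cre;Rhau F/F mice and the Control-labelled arrays from Rhau F/F mice without the Cre. Both genotypes carried the floxed Rhau alleles and both received 5 doses of tamoxifen at 2 months of age, and hearts were taken 2 months later. ERT2-Cre is a recombinase that tamoxifen switches on, and nothing in the sources limits it to cardiomyocytes. The time of day of collection is not stated in them either. Replicates are not said to be different mice, so p-values cover only the spread between these samples.

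The mammalian clock is a feedback loop of transcription. CLOCK pairs with BMAL1, the product of Arntl, and the pair drives genes with an E-box, among them the Per and Cry genes, Nr1d1, Nr1d2, Dbp and Tef. PER and CRY proteins then inhibit the pair, while the nuclear receptors NR1D1 and NR1D2 (REV-ERB alpha and beta) compete with ROR receptors at ROR elements and repress Arntl, Npas2, Clock, Cry1 and Nfil3. DBP, TEF and HLF activate genes with a D-box, such as the Per genes, and NFIL3 represses them. In mouse heart, transcripts such as Dbp, Nr1d1 and Per3 peak many hours away from Arntl and Npas2. Over much of the day the sets therefore move in opposite directions, but genes within a set also peak at different times, Nr1d1 and Dbp before Per2, and hearts from either side of a peak can read alike.

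The sequence elements behind this wiring are shown for the promoters in which a match was found, since the comparison of arrays rests on E-box, D-box and ROR element genes. RefSeq promoters of 9 of the 10 genes were searched on both strands, from 250 bases before to 50 bases after each annotated start (GRCm38.p6, 13 promoters). The letters were CACGTG for the E-box, TTATGTAA and TTACGTAA for the D-box, and TAGGTCA and TGGGTCA for the ROR element. The lines run 5′ to 3′ on the gene's strand, with the matched letters in capitals.
Per1 E-box, chr11:69098771-69098800, plus strand: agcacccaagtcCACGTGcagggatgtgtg
Cry1 E-box, chr10:85185097-85185126, minus strand: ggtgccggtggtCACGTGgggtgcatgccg
Tef E-box, upstream start site, chr15:81802534-81802563, plus strand: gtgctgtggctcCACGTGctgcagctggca
Tef E-box, downstream start site, chr15:81811264-81811293, plus strand: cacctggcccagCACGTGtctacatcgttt
Per3 D-box, distal, chr4:151044852-151044881, minus strand: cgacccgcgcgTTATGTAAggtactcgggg
Per3 D-box, proximal, chr4:151044805-151044834, minus strand: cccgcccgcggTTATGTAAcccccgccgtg
Arntl ROR element, chr7:113207530-113207558, plus strand: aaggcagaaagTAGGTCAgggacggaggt
Nfil3 ROR element, reverse complement, chr13:52981034-52981062, minus strand: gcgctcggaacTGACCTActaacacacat

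The E-box was matched in 3 of the 9 genes (Per1, Cry1 and Tef). By promoter, this was 4 of the 13, against 7.15% of all 32851 promoters of the RefSeq table. The D-box was matched in 1 of the 9, Per3, at 2 sites whose first bases lay 47 bases apart. By promoter, this was 1 of the 13, against 1.06% of all promoters. The ROR element was matched in 0 of the 9 and in 6.45% of all promoters, and the Arntl and Nfil3 matches belong to other genes of the network. The cAMP element TGACGTCA and the heat shock element GAANNTTC were matched in 0 of the 9, and in 1.79% and 7.86% of all promoters. A match only describes letters in this window, and the grouping of genes used for the arrays follows textbook regulation and not these matches.

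Several facts of the arrays touch the clock values. Dhx36, which encodes RHAU, read 568 and 537 in the KO-labelled arrays and 327 and 194 in the Control-labelled arrays on its brightest probe set. By RNA, the KO-labelled arrays were thus the higher ones. The paper reports effective Rhau deletion, by Western blot of RHAU protein, in hearts of tamoxifen-treated ERT2-Cre;Rhau F/F mice. Where the Dhx36 probe sets lie in the gene was not analysed, and the cause of these readings was not tested. Esr1, the gene of the receptor that ERT2 is made from, read 5.40 and 25.5 against 18036 and 19847 on its brightest probe set. On the other Esr1 probe sets only Control 1 was high, at 1936 and 518, with Control 2 at 74.0 and 28.7. Every direction given here is therefore a direction by label. Control 1 stood apart, with 8 of 10 ventricular cardiomyocyte markers and 9 of 11 fast skeletal muscle markers over 2-fold away from the other 3 arrays. The summed cardiomyocyte markers read 400582 and 413699 in the KO-labelled arrays, 87510 in Control 1 and 418496 in Control 2. Most of the sum in Control 1 came from Myl2 (37359), Myl3 (37087) and Actc1 (12364). The median cardiomyocyte marker read 44214 and 42931 in the KO-labelled arrays, 173 in Control 1 and 44748 in Control 2. Over 2-fold away in Control 1 were also 3 of 4 endothelial, 2 of 4 fibroblast, 2 of 2 blood, 2 of 3 fat and 1 of 4 macrophage markers. The summed endothelial markers read 7631 and 6988 in the KO-labelled arrays, 2826 in Control 1 and 6879 in Control 2. The summed macrophage markers read 9225 and 9816 in the KO-labelled arrays, 4547 in Control 1 and 9989 in Control 2. Tnni3, the cardiac troponin I gene, read 39371 and 37838 in the KO-labelled arrays, 10.3 in Control 1 and 38930 in Control 2. The summed skeletal muscle markers read 48080 and 48549 in the KO-labelled arrays, 465652 in Control 1 and 63730 in Control 2. The median skeletal muscle marker read 68.7 and 44.9 in the KO-labelled arrays, 43234 in Control 1 and 54.5 in Control 2. All 7 heat shock factor targets were highest in Control 2, with sums of 67550 and 64358 in the KO-labelled arrays, 43268 in Control 1 and 177070 in Control 2. Fewer cells of a type and less RNA per cell cannot be told apart in tissue RNA. Intensities are MAS 5.0 values on a linear scale, and the 51.7% to 54.0% of probe sets under 100 on an array are called dim here.

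None of the 10 clock genes differed by 2-fold between KO-labelled and Control-labelled arrays on its brightest probe set, the one with the highest mean log2 intensity, while 19.1% of all genes did. On these probe sets 5 genes had a higher and 5 a lower mean log2 intensity in the KO-labelled arrays. Clock, Per1 and Tef were lower without overlap between the groups, 3 of 10 where 36.3% of all genes did not overlap. By limma, 0 of the 24 probe sets passed an adjusted p of 0.05 (smallest adjusted p = 0.892), and 0.0% of all probe sets did. An unadjusted p under 0.05 was reached by 2 of the 24 with limma, where 4.2% of all probe sets reached it, and by 3 with the methods' t-test, where 5.27% did.

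A fold of 2 with an unadjusted p under 0.05 was passed by 1 of the 24 probe sets, one of Per3 that was higher in the KO-labelled arrays. Over all probe sets 3.36% passed, 1.88% higher and 1.48% lower, and over the brightest probe set of each gene 3.4% passed, with 0 of the 10 clock genes. Without overlap, 4 of the 24 were higher and 6 lower in the KO-labelled arrays, where 21.4% of all probe sets were higher and 14.0% lower, 35.4% in all. The median log2 difference, Rhau KO minus Control, was 0.041 over the clock probe sets and 0.093 over all probe sets. With 2 arrays a group, the smallest p that exact permutation can reach is 0.333.

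**Figure D1:**
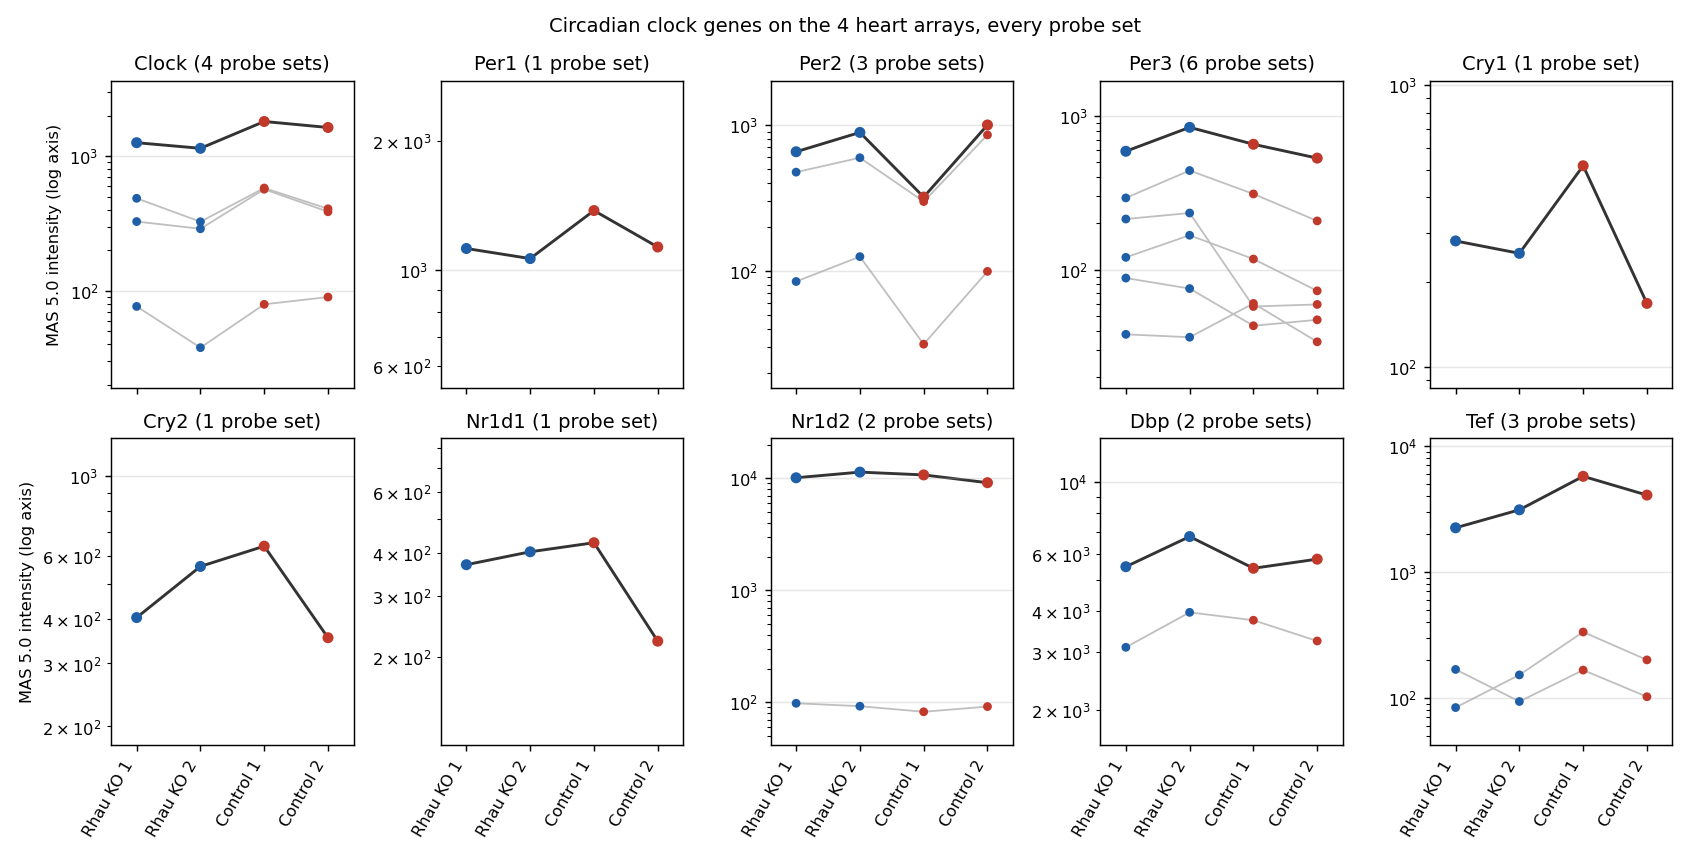
MAS 5.0 intensity (log axis, arbitrary units) of each clock gene on the 4 arrays, with 1 line per probe set, KO-labelled arrays as blue points, Control-labelled arrays as red points and the brightest probe set of each gene as a black line. The brightest probe sets of Dbp and Nr1d2 run nearly level, at 5424 to 6785 and 9143 to 11368, that of Tef is lower in both KO-labelled arrays, and that of Per2 is at 320 in Control 1.

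Clock, which encodes the DNA-binding activator of the loop, was lower in both KO-labelled arrays on 3 of its 4 probe sets. On the brightest it read 1263 and 1147 in the KO-labelled arrays and 1816 and 1639 in the Control-labelled arrays. The groups did not overlap, and the log2 difference was -0.52 (standard error 0.21, limma 95% confidence interval -1.07 to 0.028, unadjusted p = 0.0585, adjusted p = 0.892). The probe set 1418660_at read 327 and 289 in the KO-labelled arrays against 569 and 387 in the Control-labelled arrays, with a log2 difference of -0.61 (standard error 0.31). On 1435775_at the groups overlapped, at 487 and 326 against 581 and 407. On 1439314_at all arrays were dim, at 76.4 and 37.7 against 79.2 and 89.7. The log2 difference of the brightest probe set was -0.59 to -0.45 when any 1 array was left out. Without Control 2, which leaves Control 1 with its skeletal muscle transcripts as the lone array of its group, Clock had an adjusted p = 0.0433 by limma, in a comparison that called 14.0% of all probe sets.

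The partners of CLOCK were read from a list of other clock network genes. Arntl, which encodes BMAL1, read 227 and 168 in the KO-labelled arrays, 483 in Control 1 and 223 in Control 2 on its brightest probe set. Control 1 was the highest of the 4, and the KO-labelled arrays lay near and below the level of Control 2. Npas2, which encodes a partner that can stand in for CLOCK, read 97.9 and 109 in the KO-labelled arrays and 56.2 and 102 in the Control-labelled arrays, at the edge of the dim range.

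The Period genes encode the proteins that close the loop together with CRY. Per1, which also responds quickly to hormones, read 1124 and 1065 in the KO-labelled arrays and 1377 and 1133 in the Control-labelled arrays. The groups were separate by a narrow margin, and the log2 difference was -0.19 (standard error 0.23, 95% interval -0.78 to 0.39). Without Control 1 it was -0.05.

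Per2 had the widest range of the 10 genes on its brightest probe set, with a highest array at 3.12 times the lowest. It read 654 and 887 in the KO-labelled arrays, 320 in Control 1 and 998 in Control 2. The Control-labelled arrays thus lay below and above both KO-labelled arrays. The log2 difference of 0.43 (standard error 0.59) was -0.39 without Control 1. On 1457350_at the order of arrays was the same, at 474 and 595 in the KO-labelled arrays, 298 in Control 1 and 853 in Control 2. On 1417603_at, dim on 3 arrays, Control 1 was again lowest, at 31.4. Per2 was lowest in the array with the most skeletal muscle transcripts and, on the brighter pair of probe sets, highest in the array with the most heat shock transcripts, and the part of either in the result was not tested.

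Per3, whose promoter holds the pair of D-boxes printed above, had 6 probe sets, which differed in what they showed. On the brightest it read 587 and 840 in the KO-labelled arrays and 652 and 530 in the Control-labelled arrays, with overlap (log2 difference 0.26, standard error 0.29, 95% interval -0.51 to 1.02). The next, 1442243_at, read 292 and 440 against 310 and 207, also with overlap. Both put Rhau KO 2 highest and Control 2 lowest.

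The Per3 probe set 1441445_at read 213 and 233 in the KO-labelled arrays and 57.5 and 59.3 in the Control-labelled arrays. The arrays of each group lay close together and the Control readings were dim. The log2 difference was 1.93 (standard error 0.36, unadjusted p = 0.00346, adjusted p = 0.892 by limma), and it was 1.86 to 2.00 when any 1 array was left out. Of the other Per3 probe sets, 1458176_at read 120 and 167 against 117 and 72.7. The remaining pair were dim on all arrays, 1460662_at at 88.0 and 75.2 against 43.1 and 47.1 without overlap, and 1421086_at at 37.9 and 36.3 against 60.2 and 33.9 with overlap. Where in the gene each of these probe sets lies was not analysed here, so whether 1441445_at reads another transcript form was not tested.

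Cry1 and Cry2 encode the main repressors of CLOCK and BMAL1, and each had 1 probe set. Cry1 read 280 and 253 in the KO-labelled arrays, 518 in Control 1 and 168 in Control 2. Cry2 read 403 and 560 in the KO-labelled arrays, 638 in Control 1 and 354 in Control 2. In both genes the KO-labelled arrays lay inside the range of the Control-labelled arrays, which differed from each other by 3.08-fold in Cry1 and 1.80-fold in Cry2. The log2 differences were -0.15 (standard error 0.59) and -0.0014 (standard error 0.39), and without Control 1 they were 0.66 and 0.42.

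Nr1d1 and Nr1d2 encode the REV-ERB repressors, and Nr1d1 has a strong daily rhythm in mouse tissues. Nr1d1 read 369 and 402 in the KO-labelled arrays, 427 in Control 1 and 222 in Control 2. Control 2 was the low array and the other 3 lay close together. The log2 difference was 0.32 (standard error 0.40, 95% interval -0.71 to 1.35), and -0.15 without Control 2. Nr1d2 read 10116 and 11368 in the KO-labelled arrays and 10732 and 9143 in the Control-labelled arrays. Its highest array was 1.24 times its lowest, and its log2 difference was 0.11 (standard error 0.22, 95% interval -0.45 to 0.68). A second Nr1d2 probe set was dim on all arrays, at 97.9 and 92.2 against 82.2 and 91.5. On their brightest probe sets, Nr1d1, Nr1d2, Cry1, Cry2 and Per3 were lowest in Control 2. This was the array with the highest heat shock transcripts, whose part in this was not tested.

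Dbp and Tef encode activators of the PAR bZIP family that carry the rhythm to D-box genes. Dbp, an output gene with a steep daily rhythm in mouse tissues, read 5484 and 6785 in the KO-labelled arrays and 5424 and 5785 in the Control-labelled arrays. The groups overlapped here and on 1418174_at, which read 3104 and 3973 against 3758 and 3246. The log2 difference was 0.12 (standard error 0.22, 95% interval -0.44 to 0.69) on the brightest probe set and 0.0078 (standard error 0.23) on the other. The highest array was 1.25 times the lowest on the brightest. Among the 22518 brighter probe sets of the array, those above the median level, the median of this ratio was 1.70. Of them, 12.0% had a ratio no larger than that of Dbp, 11.4% no larger than that of Nr1d2 and 16.0% no larger than that of Per1.

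Tef had the lowest unadjusted p by limma among the brightest probe sets of the 10 genes. By the methods' t-test its unadjusted p was 0.126, and Clock had the lowest, 0.0362. Tef read 2236 and 3107 in the KO-labelled arrays and 5730 and 4067 in the Control-labelled arrays. The averages were 2672 ± 616 against 4899 ± 1176 (SD, n = 2 each). The groups did not overlap, and the log2 difference was -0.87 (standard error 0.29, 95% interval -1.63 to -0.12, unadjusted p = 0.0317, adjusted p = 0.892 by limma). The dimmer 1450184_s_at gave the same order of arrays, at 83.7 and 152 against 333 and 200 (log2 difference -1.19, standard error 0.48). On 1438033_at the groups overlapped, at 168 and 93.5 against 166 and 102. The log2 difference of the brightest was -0.63 without Control 1 and -1.12 without Control 2 (adjusted p = 0.0218 by limma, in the comparison that called 14.0% of all probe sets). Hlf, the other PAR bZIP gene and no member, read 321 and 346 in the KO-labelled arrays against 411 and 661 in the Control-labelled arrays (log2 difference -0.65, standard error 0.33), and on its other probe set the groups overlapped.

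**Figure D2:**
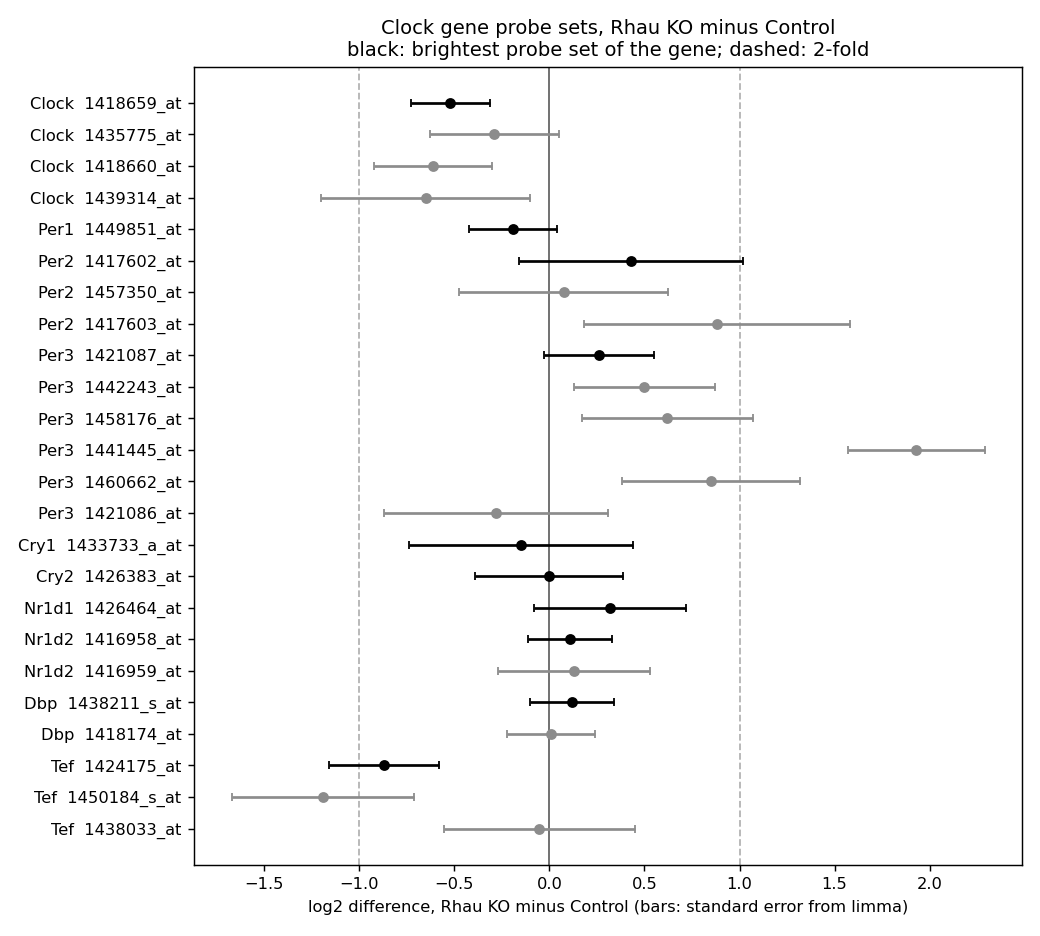
Log2 difference, Rhau KO minus Control, of the 24 clock probe sets (x axis), with the standard error from limma as bars, black for the brightest probe set of each gene, gray for the others and dashed lines at 2-fold. The brightest probe sets lie between -0.87 for Tef and 0.43 for Per2, and 1441445_at of Per3 and 1450184_s_at of Tef lie past the dashed lines.

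Leaving out Control 2 moved the counts of clock probe sets most. Without it, 6 of the 24 passed an adjusted p of 0.05, where 14.0% of all probe sets did, and 5 passed the fold of 2 with an unadjusted p under 0.05, where 15.6% did. Without Control 1, the counts were 0 of 24 where 0.293% of all probe sets passed the adjusted p, and 1 of 24 where 4.64% passed the fold and unadjusted p.

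To ask whether clock phase differed between arrays, each gene's log2 intensity on its brightest probe set was set against its mean over the 4 arrays. The 8 genes driven through E-boxes and D-boxes (Per1, Per2, Per3, Cry2, Nr1d1, Nr1d2, Dbp and Tef) were averaged, and so were 5 driven through ROR elements (Clock, Cry1, Arntl, Npas2 and Nfil3). The clock contrast of an array was the E-box and D-box mean minus the ROR element mean. It was -0.17 in Rhau KO 1 and 0.52 in Rhau KO 2, against -0.36 in Control 1 and 0.0051 in Control 2. The contrast averaged 0.18 ± 0.49 in the KO-labelled arrays and -0.18 ± 0.26 in the Control-labelled arrays (SD, n = 2 each). The groups overlapped, and the difference between them was smaller than the SD of the KO-labelled arrays. No test was made of this score over chosen genes. An average over a set can also hide shifts within it: Per2 was at -1.04 in Control 1 and 0.61 in Control 2, and Nr1d1 at 0.31 in Control 1 and -0.63 in Control 2.

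**Figure D3:**
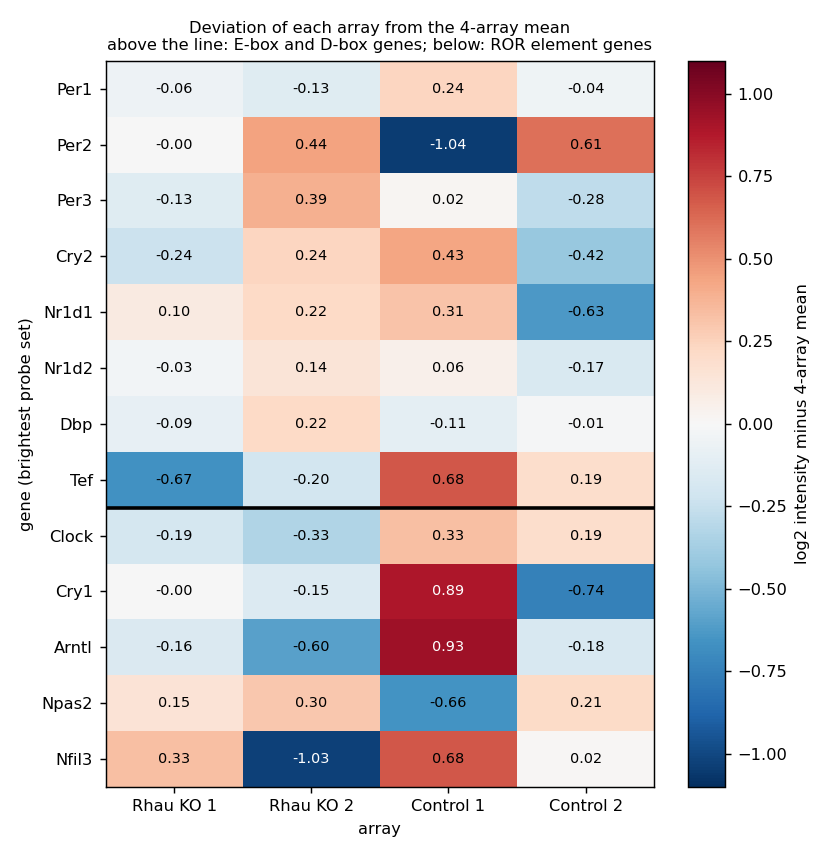
Log2 intensity minus the 4-array mean (colour and printed value) of the 8 E-box and D-box genes above the line and the 5 ROR element genes below it, with 1 column per array. Rhau KO 2 is mostly above the mean in the upper block and mostly below it in the lower block, and Control 1 stands out at -1.04 for Per2 and 0.93 for Arntl.

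The KO-labelled arrays differed from each other in the way that the contrast measures, a pattern noticed after the values were seen. Rhau KO 2 was higher than Rhau KO 1 in 7 of the 8 E-box and D-box genes, with Per1 the exception, and lower in 4 of the 5 ROR element genes, with Npas2 the exception. The mean log2 difference, Rhau KO 2 minus Rhau KO 1, was 0.30 over the E-box and D-box genes and -0.38 over the ROR element genes. The ROR element mean leaned on Nfil3 at -1.35, with Arntl at -0.44, Cry1 at -0.15, Clock at -0.14 and Npas2 at 0.16. Differences as large as those of Clock and Cry1 were found in 58.5% and 57.0% of the brighter probe sets. Per3 was 1.43-fold, Cry2 and Tef 1.39-fold, Per2 1.36-fold and Dbp 1.24-fold higher in Rhau KO 2. Arntl was 1.36-fold lower. Nfil3, the gene of the D-box repressor, was 2.56-fold lower, at 286 against 731, and it read 937 in Control 1 and 590 in Control 2.

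A difference as far in its direction as that of Nfil3 was found in 0.497% of the brighter probe sets, and as that of Per3 in 5.79%. Across all probe sets, the KO-labelled arrays had the highest Pearson r of the 6 pairs of arrays, 0.926. Over the 20 clock probe sets among the brighter ones, the median size of their log2 difference was 0.34, and over all brighter probe sets 0.18. The 20 hold repeated readings of the same 10 genes, and over the brightest probe set of each gene the median size was 0.24. Of the 20, 12 differed by over 1.2-fold, where 35.5% of all brighter probe sets did, and 0 by over 2-fold, where 2.5% did. The clock probe sets also had the larger median in other pairs, 0.44 against 0.25 between Rhau KO 1 and Control 2 and 0.41 against 0.26 between Rhau KO 2 and Control 2, and the smaller one between Rhau KO 1 and Control 1, 0.28 against 0.51. By the brightest probe set of each of the 10 genes, the medians of these pairs were 0.28, 0.45 and 0.41. Of all brighter probe sets, 48.0% were higher in Rhau KO 2, and of the 20 clock probe sets 13 were, or 7 of the 10 genes.

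**Figure D4:**
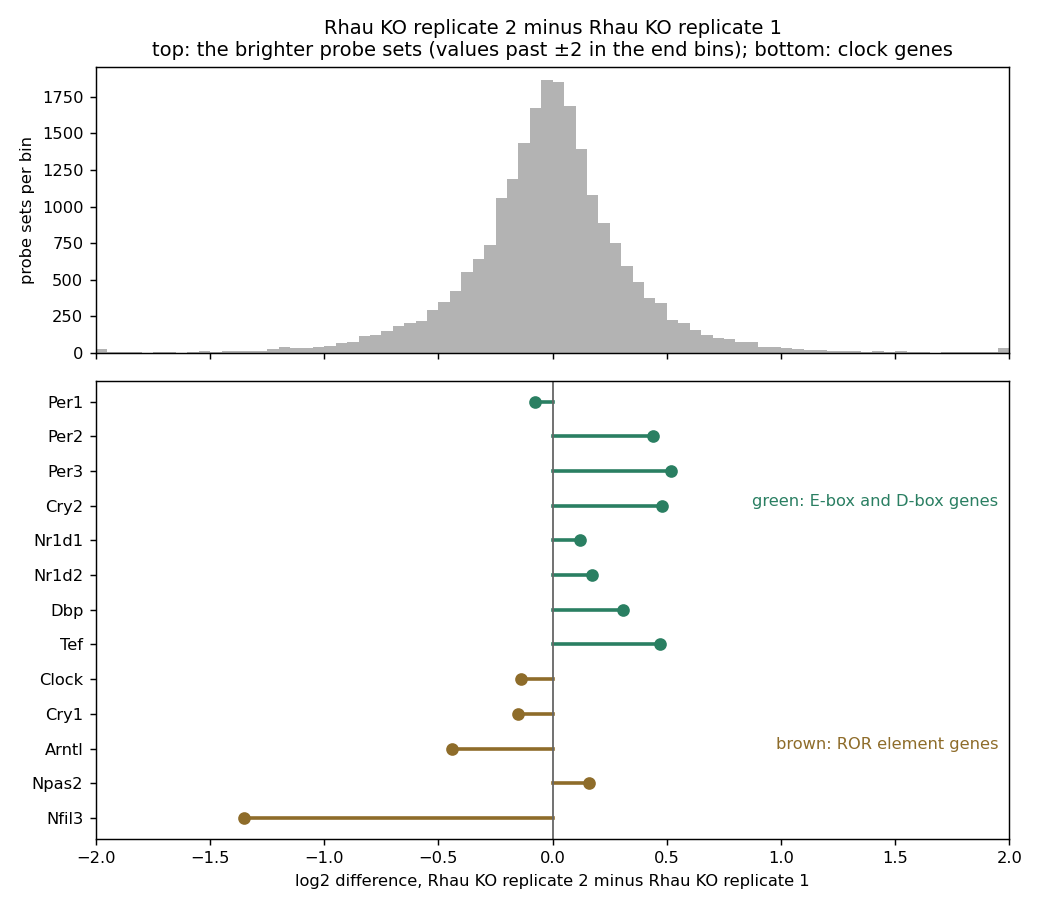
Log2 difference between the KO-labelled arrays, Rhau KO 2 minus Rhau KO 1 (x axis), as a histogram of the brighter probe sets (top, number per bin) and for single clock genes (bottom), with E-box and D-box genes in green and ROR element genes in brown. Genes in green reach 0.52 (Per3), with Per1 at -0.078, and genes in brown reach -1.35 (Nfil3), with Npas2 at 0.16.

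Between the Control-labelled arrays both sets of clock genes differed in the same direction. Control 1 was higher than Control 2 in 6 of the 8 E-box and D-box genes, all but Per2 and Dbp, and in 4 of the 5 ROR element genes, all but Npas2. The mean log2 differences, Control 1 minus Control 2, were 0.17 and 0.54. Of all brighter probe sets, 45.8% were higher in Control 1. Cardiac, skeletal muscle, endothelial, macrophage and heat shock transcripts also differed between these arrays, and their part in the clock values was not tested. When each gene was averaged over its probe sets, the contrast was -0.08 in Control 1 and -0.26 in Control 2, so the order of these arrays turned.

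Signals known to act on clock genes were read from lists. Glucocorticoids, whose release follows a daily rhythm, induce Per1 and many other genes, and 7 of 9 such genes were higher in Rhau KO 2 than in Rhau KO 1 (median log2 difference 0.22), where 48.0% of the brighter probe sets were. The count was also 7 of 9 for Control 1 over Control 2, with a median of 0.79, where 45.8% of the brighter probe sets were higher. In this pair the clock contrast differed the other way, by -0.37. For Rhau KO 2 over Control 2 the count was 8 of 9, with a median of 0.21, where 53.9% of the brighter probe sets were higher. Fkbp5, a co-chaperone gene induced by the glucocorticoid receptor, read 783 in Rhau KO 1, 1533 in Rhau KO 2, 2684 in Control 1 and 986 in Control 2. Within the KO-labelled arrays Fkbp5 was thus higher in the same array as Per2, Per3, Cry2 and Dbp but not Per1, and the part of hormone signals was not tested. Fkbp5 had the largest log2 difference of the 9 genes between these arrays, 0.97, while Sgk1 (-0.34) and Cdkn1a (-0.043) were lower in Rhau KO 2. Between groups, 0 of the 9 genes passed a fold of 2 with an unadjusted p under 0.05, where 1.74% of all genes passed higher and 1.65% lower. Their median log2 difference was -0.27, and that of all genes 0.091.

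Of the 7 heat shock factor targets 0 passed these thresholds (median log2 difference -0.46), and of 7 immediate early genes 0 were higher and 2 lower, with a median of 0.14. Fos, an immediate early transcription factor gene, read 449 and 314 in the KO-labelled arrays against 629 and 2017 in the Control-labelled arrays. Nr4a1, a nuclear receptor gene of the same kind of response, read 3182 and 2046 against 6912 and 4045. Both genes had an adjusted p of 0.892 by limma. By the methods' t-test the unadjusted p was 0.213 for Fos and 0.171 for Nr4a1. Cirbp, a cold-responsive RNA-binding protein gene that follows body temperature in mouse cells, was the measured gene of a list of 2. It read 1434 and 1689 against 1036 and 988, without overlap (log2 difference 0.62, unadjusted p = 0.0372, adjusted p = 0.892 by limma).

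Of 20 other genes of the clock network, 18 had a probe set of their own symbol, of which 4 had a higher and 14 a lower mean log2 intensity in the KO-labelled arrays. Their median log2 difference was -0.18, and that of all genes 0.091. Past a fold of 2 with an unadjusted p under 0.05 were 0 higher and 1 lower, Arntl2, a paralog of Arntl, at 32.2 and 19.7 in the KO-labelled arrays against 129 and 102 in the Control-labelled arrays. Over all genes 1.74% passed higher and 1.65% lower. The Arntl2 readings in the KO-labelled arrays were dim, and its adjusted p was 0.892 by limma. The other Arntl2 probe set, dim on all arrays, overlapped between groups. Ciart, which encodes a repressor of CLOCK and BMAL1, read 508 and 627 against 506 and 799. Bhlhe41, the gene of a repressor that binds E-boxes, read 97.5 and 52.1 against 91.5 and 59.5. Both overlapped between groups. Its paralog Bhlhe40 read 2261 and 2098 in the KO-labelled arrays, 5226 in Control 1 and 2570 in Control 2. Rora, the gene of an activator at ROR elements, chosen for mention after its values were seen, read 1002 and 1042 in the KO-labelled arrays, 4201 in Control 1 and 1148 in Control 2. On their brightest probe sets, Arntl, Bhlhe40 and Rora thus shared their highest array, Control 1, with the skeletal muscle markers. So did Clock, Per1, Cry1, Cry2, Nr1d1 and Tef, but not Per2, Per3, Nr1d2 and Dbp. The other Arntl probe set, dim on all arrays, was lowest in Control 1, at 6.14. The part of tissue make-up in these values was not tested.

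Over the 4 arrays, the genes of the members and the network most like Dbp were Wee1 (Pearson r = 0.89), Per3 (r = 0.76) and Npas2 (r = 0.60), with Per2 at the same r to 2 decimals. The gene farthest from it was Nfil3 (r = -0.99). These are 4 points that share their arrays, and 652 of 45037 probe sets, or 1.45%, had an r over 0.95 with Dbp, so the order is a description alone. Wee1, a cell cycle kinase gene driven by the clock in mouse liver, read 531 and 706 in the KO-labelled arrays against 455 and 471 in the Control-labelled arrays.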

How the data were processed

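RNA labelled as mouse heart RNA was measured on 4 Affymetrix arrays, grouped by their labels. The authors computed MAS 5.0 intensities in GeneSpring, and the deposited intensities are linear, with 1 value per probe set and array. Of the 45037 probe sets that are no controls, 34945 carry 1 gene symbol, 932 several and 9160 none. Log2 intensities (Rhau KO minus Control) of all 45037 were fitted in R 4.3.3 by limma 3.58.1, using lmFit and trended eBayes, and adjusted by Benjamini-Hochberg. The clock genes and lists were chosen with earlier results of these data known. Named are all members, Dhx36, a set of main network genes and any network gene past both thresholds. Markers of endothelium, fibroblasts, macrophages, blood and fat were also read, and 0 of their genes passed both thresholds between the groups. Alternatives included an untrended fit, quantile normalization, median centring, a pseudocount of 32, brighter probe sets alone, 1 value per gene, a replicate block, a t-test as in the methods, and single arrays left out, where the array left alone was taken to vary like the rest. Precision is limited by the number of arrays. The code was tested on simulated arrays. Python 3.11.15, pandas 2.3.3 and matplotlib 3.10.9 were used for tables and plots.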

Additional observations from a re-analysis of the deposited data

How the results depend on the processing

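The count of clock probe sets past an adjusted p of 0.05 was 0 with each alternative that used all 4 arrays, and 0 to 6 when an array was left out. The 6, without Control 2, were 2 of Clock and 1 each of Per2, Per3, Cry1 and Tef. The count past the fold of 2 and the unadjusted p, 1 in the report, was 2 with quantile normalization and 2 with median centring (Tef 1450184_s_at added, lower), 0 of 10 genes by the brightest probe set or by the mean of probe sets, and 1 to 5 when an array was left out. For the network genes, the count of 1 was 2 with no trend and 2 by the methods' t-test (Fbxl21 added), 0 among brighter probe sets, 0 by the mean of probe sets, and 0 to 5 when an array was left out. With the replicate number as a block, the 3 counts were 0, 1 and 1, and no call moved. The deviations of same-numbered arrays correlated at 0.003. With 2 arrays a group, and Control 1 apart from the rest in tissue markers, this cannot show whether the numbers pair the arrays.

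Clock, Per1 and Tef kept a lower mean in the KO-labelled arrays under each alternative run. With 1 array left out, the log2 difference was -0.39 to 1.25 for Per2, -0.0017 to 0.51 for Per3, -0.96 to 0.66 for Cry1, -0.43 to 0.42 for Cry2, -0.15 to 0.79 for Nr1d1, -0.0011 to 0.23 for Nr1d2 and -0.031 to 0.28 for Dbp. Averaged over its probe sets, Per3 was at 0.65. The turns came without Control 1 for Per2, Cry1 and Cry2, without Control 2 for Nr1d1 and Nr1d2, without Rhau KO 1 for Cry2 (0.24), and without Rhau KO 2 for Per3 and Dbp. With median centring every difference was lower, with Nr1d2 at -0.0093, Dbp at -0.00085, Per3 at 0.13, Clock at -0.64 and Tef at -1.0. The clock contrast by the mean of probe sets was -0.08 in Control 1 and -0.26 in Control 2, and with Arntl and Npas2 alone it was -0.065 in Control 1. Rhau KO 2 had the highest contrast, 0.31 to 0.54, under each alternative run. The cause of these changes was not tested.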
